A study of Mus musculus with 10 samples.

Results

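A set of 10 imprinted genes was followed through ChIP-seq of H3K27me3 and EZH2 in mouse ES cells. The set holds Grb10, Igf2, H19, Igf2r, Peg3, Plagl1, Mest, Dlk1, Meg3 and Slc38a4, which are 10 of the 24500 genes in the count tables, and each was found by its symbol. They were chosen by symbol, with the H3K27me3 and EZH2 counts of these libraries in view and Grb10 as the leading gene, so their own levels and changes are given as a description with no test. Control E14 cells, an ES cell line cultured with LIF and serum (strain given as 12910la), were compared with ex14D-Ezh2 cells of the same line. In the ex14D-Ezh2 cells, CRISPR-Cas9 had disrupted exon 14 of Ezh2 so that only the isoform skipping this exon is functional. Each antibody had 2 libraries per genotype, and each genotype had 1 input library of chromatin without antibody, 10 libraries in all. The sample titles name the mutant Ezh2KO and the genotype label a knockout of exon 14. The study also used a separate line without Ezh2, so which of them was sequenced is not certain, and ex14D here means the libraries with the exon 14 label. The deposited names tag the 2 mutant libraries of each antibody differently without stating what the tags mean, and no source states whether the replicates were separate cultures or lines, so p-values measure the spread between libraries only.

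Imprinted genes are expressed mainly from the chromosome copy inherited from 1 parent. DNA methylation placed in the egg or sperm marks most imprinted clusters, and a few genes, Slc38a4 and Sfmbt2 among them, use H3K27me3 inherited from the egg in the early embryo. EZH2 is the catalytic subunit of polycomb repressive complex 2 (PRC2), which trimethylates lysine 27 of histone H3 (H3K27me3) at repressed promoters, often those rich in CpG dinucleotides. The reads here were not split by parental copy, so each value is the sum over both copies.

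The products of these genes fall into a few roles. Igf2 is a fetal growth factor, Igf2r is the receptor that clears it, and Grb10 is an adaptor that restrains insulin and growth factor receptor signalling. Dlk1 is a membrane ligand of the Notch family, Slc38a4 an amino acid transporter and Mest a hydrolase-like enzyme. Plagl1 and Peg3 encode zinc finger proteins, and H19 and Meg3 are long noncoding RNAs. In GRCm38, H19 (chr7:142575530-142578146) and Igf2 (chr7:142650768-142666816) are neighbours on the reverse strand of chromosome 7, and Peg3 lies on the same strand at chr7:6703892-6730462. Dlk1 (chr12:109452485-109463336) and Meg3 (chr12:109540996-109571729) are neighbours on the forward strand of chromosome 12. Igf2r is at chr17:12682406-12769706 and Slc38a4 at chr15:96994816-97055956, both on the reverse strand, and Plagl1 at chr10:13090832-13131694 and Mest at chr6:30733506-30748466, both on the forward strand.

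The promoters of these genes differ widely in CpG content, as the 200 bases upstream of the TSS show for Grb10, Dlk1, Igf2 and Slc38a4. Grb10 had the most H3K27me3 reads at the promoter. Dlk1 and Igf2 are 2 others under a peak in every library, and Slc38a4 is the gene whose H3K27me3 was lower in ex14D. The sequences are RefSeq promoters of GRCm38.p6, read 5′ to 3′ on the strand of the gene, with each CpG in capitals. Grb10 is at chr11:12037421-12037620 on the reverse strand, Dlk1 at chr12:109452623-109452822 on the forward strand, Igf2 at chr7:142666817-142667016 on the reverse strand and Slc38a4 at chr15:97055957-97056156 on the reverse strand.
Grb10: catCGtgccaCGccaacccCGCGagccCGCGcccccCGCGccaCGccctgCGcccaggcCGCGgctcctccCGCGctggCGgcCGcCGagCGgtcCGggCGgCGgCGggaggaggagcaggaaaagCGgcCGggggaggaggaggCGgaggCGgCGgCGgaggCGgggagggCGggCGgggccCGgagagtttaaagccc
Dlk1: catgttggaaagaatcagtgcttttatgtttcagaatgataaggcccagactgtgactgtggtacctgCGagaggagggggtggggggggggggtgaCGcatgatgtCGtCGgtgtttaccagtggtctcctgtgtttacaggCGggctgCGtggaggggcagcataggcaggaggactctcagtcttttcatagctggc
Igf2: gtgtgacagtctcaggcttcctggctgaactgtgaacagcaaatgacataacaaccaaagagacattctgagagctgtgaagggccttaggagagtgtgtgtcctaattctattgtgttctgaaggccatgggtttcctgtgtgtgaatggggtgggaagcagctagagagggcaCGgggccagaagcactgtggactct
Slc38a4: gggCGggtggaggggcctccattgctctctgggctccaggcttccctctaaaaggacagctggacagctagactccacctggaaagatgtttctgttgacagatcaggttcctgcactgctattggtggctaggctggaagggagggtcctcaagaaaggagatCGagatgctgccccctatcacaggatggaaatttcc

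The Grb10 stretch holds 32 CpGs, that of Dlk1 6, that of Slc38a4 2 and that of Igf2 1. The median over 32851 RefSeq promoters was 5 in the same 200 bases. In the 1 kb window centred on the 5′ most TSS, in which the methods count promoter reads, Grb10 had 149 CpGs, and 99.73% of all windows had no more. Igf2r had 103 CpGs in its window, Plagl1 78, Peg3 48, Dlk1 45, H19 37, Meg3 33, Slc38a4 32 and Mest 26, against a median of 40 over all windows. Igf2 had 4, the fewest of these genes, but its transcripts also start 5.55 kb, 8.01 kb and 9.32 kb further along the gene, where the windows held 52, 75 and 19 CpGs.

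H3K27me3 libraries held 594289 to 1450937 reads on promoter windows, 5.65% to 7.58% of all counted reads, against 1.90% and 1.92% in the inputs, and EZH2 libraries held 13628137 to 18403892 reads on genes. Levels are given as CPM, counts scaled to the total of reads on gene rows, which are a share of each library with no external standard, so a global gain or loss of the mark cannot be read from them. As a check of the antibody, 7 genes that the study used for its ChIP-PCR lay between 0.336 and 17.3 times input in control, with Runx2 the lowest, and between 0.181 and 38.0 times in ex14D. In the fit described below, 5 of these 7 (Hoxa10, Hoxd9, Bmp6, Pax7 and Shc3) were higher in ex14D, at 2.00 to 3.52 times control, and Elavl3 was lower, so a higher share of reads in ex14D was not particular to imprinted genes. The study's own ChIP-PCR reported less H3K27me3 at these genes in ex14D cells, and its Western blots less total H3K27me3 and EZH2. The shares of reads given here do not measure such amounts, so a higher share does not show a gain of the mark. A further 8 genes active in ES cells, among them Pou5f1, Nanog and Sox2, lay between 0.0669 and 0.743 times input in control and between 0.112 and 0.289 times in ex14D.

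By CPM in the 1 kb window, Grb10 had the highest share of H3K27me3 reads of the set in both genotypes. Its window received 263 and 424 H3K27me3 reads in control against 1633 and 1766 in ex14D, while the inputs had 16 reads (control) and 25 reads (ex14D). This was 443 and 452 CPM in control (mean 447 ± 6.97, SD, n = 2) and 1125 and 1415 CPM in ex14D (mean 1270.0 ± 204.8, SD, n = 2). Both ex14D libraries were above both control libraries. The inputs were at 39.1 CPM (95% exact binomial interval 22.3 to 63.5) in control and 60.0 CPM (38.8 to 88.6) in ex14D, intervals that cover counting error only. Over the input of its genotype Grb10 was enriched by 3.48 ± 0.02 on the log2 scale in control and by 4.37 ± 0.23 in ex14D (SD, n = 2, log2 of CPM + 1), which is 11.2 and 20.7 times input. By mean CPM it was the 254th of the 24500 promoters in control and the 53rd in ex14D.

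**Figure D1:**
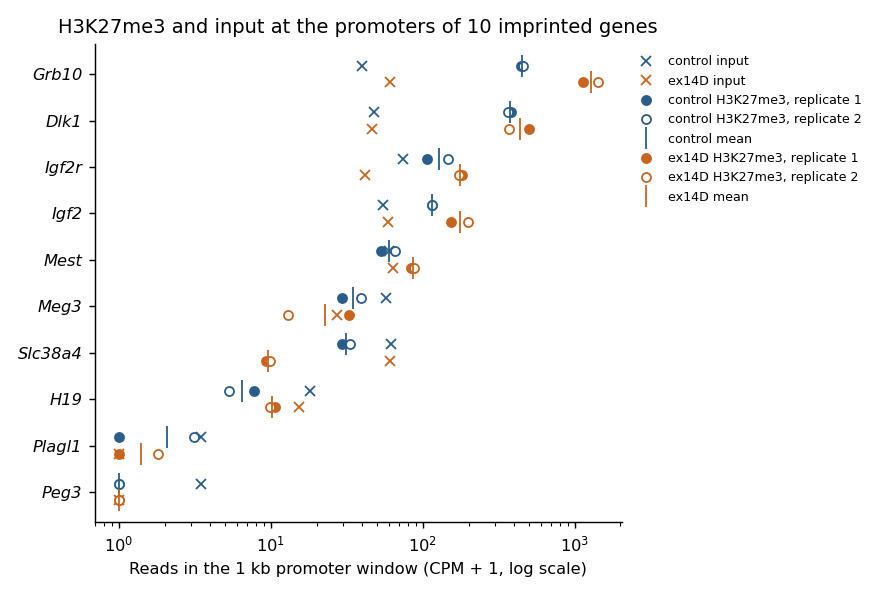
H3K27me3 and input reads in the 1 kb promoter windows of the 10 imprinted genes, as CPM + 1 on a log axis. Circles are H3K27me3 libraries (filled, replicate 1, open, replicate 2), vertical bars the mean of 2 libraries and crosses the input library. Blue is control and orange ex14D. Grb10 stands highest at 443 and 452 CPM in control against 1125 and 1415 CPM in ex14D, whereas Peg3 and Plagl1 lie at the left edge in H3K27me3 and input alike.

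Dlk1 was the second highest by CPM in the window. Its window had 227 and 342 H3K27me3 reads in control and 722 and 461 in ex14D, with 19 reads in each input. In CPM the control libraries were at 382 and 365 and the ex14D libraries at 498 and 369, so the genotypes overlapped on this scale. Dlk1 was 7.90 times input in control and 9.22 times input in ex14D.

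The ligand and its receptor stood at like levels. Igf2 had 68 and 107 reads in control and 222 and 248 in ex14D, which was 114 CPM in each control library and 153 and 199 CPM in ex14D, without overlap. Igf2r had 63 and 137 reads in control and 261 and 214 in ex14D, which was 106 and 146 CPM against 180 and 171 CPM, again without overlap. The Igf2r input was 73.3 CPM in control and 40.8 CPM in ex14D, from 30 and 17 reads, and the input of Igf2 was 53.7 and 57.6 CPM. Relative to input, Igf2 was at 2.11 times in control and 2.99 times in ex14D, and Igf2r at 1.69 and 4.23 times. With the reads of both inputs summed, the log2 enrichment of Igf2r was 1.12 in control and 1.61 in ex14D, in place of 0.76 and 2.08 with the separate inputs.

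Mest lay near its input on this scale. It had 31 and 61 reads in control and 120 and 108 in ex14D, which was 52.2 and 65.1 CPM against 82.7 and 86.5 CPM, with inputs at 58.6 and 62.4 CPM. The ex14D libraries were above the control libraries. With all counted reads as library size, Mest was above input, by 1.06 on the log2 scale in control and 1.69 in ex14D. On that scale the pseudocount of 1 CPM is large beside the input and makes the log2 values smaller in size. The same holds for Slc38a4, Meg3 and H19 below. With 0.05 CPM, Mest was at 1.56 in control and 2.30 in ex14D.

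Slc38a4 was the only tested gene of the set lower in ex14D beyond the threshold used below. Its window had 17 and 30 reads in control and 12 and 11 in ex14D, although the ex14D libraries were deeper, and 25 reads in each input. This was 28.6 and 32.0 CPM in control (mean 30.3 ± 2.41, SD, n = 2) and 8.27 and 8.81 CPM in ex14D (mean 8.54 ± 0.384, SD, n = 2). The genotypes did not overlap, and the inputs were at 61.1 and 60.0 CPM. Whether control Slc38a4 lay above or below input depended on the scaling, since its log2 enrichment was -0.99 with CPM over gene rows and 0.35 with all counted reads as library size, while ex14D was below input on both scales, at -2.68 and -0.41.

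The noncoding RNAs had few reads. Meg3 had 17 and 36 reads in control and 46 and 15 in ex14D, and its 4 libraries overlapped at 28.6, 38.4, 31.7 and 12.02 CPM. H19 had 4 reads in each control library and 14 and 11 in ex14D, at 6.73 and 4.27 CPM against 9.65 and 8.81 CPM, with inputs at 17.1 and 14.4 CPM. H19 was below its input in all 4 libraries and Meg3 in 3 of 4 (inputs at 56.2 and 26.4 CPM). With all counted reads as library size this did not hold, since Meg3 was above input at log2 enrichments of 0.51 in control and 0.73 in ex14D, and H19 was at -0.0093 in control and 0.39 in ex14D.

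Peg3 and Plagl1 could not be judged from these counts. No H3K27me3 peak or EZH2 domain was called within 20 kb of the TSS of either gene in any library. Peg3 had 0 reads in all 4 H3K27me3 libraries, which allows up to 5.05 CPM in the shallowest of them, and Plagl1 had 0, 2, 0 and 1 reads. The inputs were as empty, with 1 read per gene in control and 0 in ex14D. Of the 1 kb window of Peg3, 836 bp are shared with the window of Usp29, and of that of Plagl1, 987 bp with the window of Hymai, and reads on more than 1 counted interval are assigned to no gene by htseq-count.

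In order of control level the genes ran Grb10, Dlk1, Igf2r, Igf2, Mest, Meg3, Slc38a4, H19, Plagl1 and Peg3. Neighbours whose control libraries overlapped were Igf2r and Igf2, Meg3 and Slc38a4, and Plagl1 and Peg3, while the control libraries of the other neighbours did not overlap. In ex14D, Igf2r and Igf2 again overlapped, at means of 175.7 and 175.9 CPM.

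The change between genotypes was fitted with edgeR's quasi-likelihood test on all 14883 promoters that passed its filter on low counts, after TMM normalization. Of these, 9.07% were past an adjusted p of 0.05, 5.83% higher in ex14D and 3.25% lower, with a median log2 fold change of -0.03. Of the 10 genes, 7 passed the filter, H19, Peg3 and Plagl1 not. Past the threshold were 5 genes higher and 1 lower in ex14D, and 1 was not past it. As the genes were selected with this contrast in view, the count is a description only.

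Grb10 had the largest difference of the set, a log2 fold change of 1.95 ± 0.21 (SE), or 3.87 times, which ranked 43rd from the top among the tested promoters. Igf2 was higher by 1.07 ± 0.24, Mest by 0.96 ± 0.28, Igf2r by 0.91 ± 0.23 and Dlk1 by 0.66 ± 0.20 on the log2 scale. Slc38a4 was lower, at -1.38 ± 0.38, or 2.61 times higher in control. Meg3 was at -0.17 ± 0.39.

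How many of these stood past the threshold changed with the setting. The values are those of the counts that were in view when the genes were selected, so they describe the fits and are no support for a change. With library size alone the median over all promoters shifted to -0.47, and only Grb10 at 1.504 and Slc38a4 at -1.83 were past the threshold, while Igf2 stood at 0.62, Mest at 0.51, Igf2r at 0.46 and Dlk1 at 0.22. With all counted reads as library size the median was -0.16, and Grb10 at 1.81, Igf2 at 0.92 and Slc38a4 at -1.52 were past it. DESeq2 size factors changed no call, no filter lost Mest, the replicate block lost Dlk1 and Mest, and DESeq2 lost both and gave Slc38a4 no adjusted p. With each of the 4 libraries left out in turn, Grb10 stood at 1.78 to 2.12. Slc38a4 stood at -1.48 to -1.32 and was past the threshold only without control replicate 1. Igf2 was past it without control replicate 1 and without ex14D replicate 1, Dlk1 only without control replicate 1, and Igf2r and Mest in none. Meg3 changed sign, from -1.04 without ex14D replicate 1 to 0.36 without ex14D replicate 2.

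**Figure D2:**
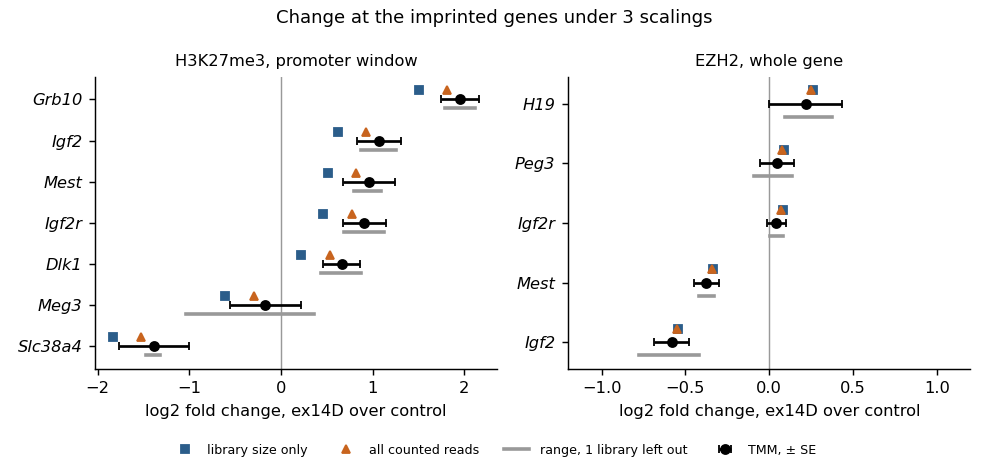
log2 fold change of ex14D over control from edgeR at the imprinted genes that passed the count filter, for H3K27me3 in promoter windows (left, 7 genes) and EZH2 over whole genes (right, 5 genes). Black circles are the TMM estimates with their SE, squares the library size scaling, triangles the scaling by all counted reads and grey bars the range over 4 fits that each leave out 1 library. Grb10 stays between 1.504 and 2.116 throughout, Slc38a4 below 0, and the other higher genes move toward 0 with library size alone.

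Broad peaks of H3K27me3 and domains of EZH2, both called by the authors in each library separately, show where around these genes the mark and the enzyme were found. H3K27me3 peaks covered at least 1 bp of the promoter window in all 4 libraries at 4 of the 10 genes, Grb10, Igf2, Igf2r and Dlk1, against 15.1% of all promoters placed. Mest had such a peak in 3 libraries, and the other 5 genes in 0. The Mest window is at its 5′ most start. Its other annotated starts, 4.54 kb and 4.55 kb further along, had 69 CpGs in 1 kb. The bases of these starts lay in no H3K27me3 peak or EZH2 domain in any library, but the 1 kb around them was partly covered. H3K27me3 peaks reached chr6:30737666 in control replicate 2 and 30737857 and 30737687 in ex14D. EZH2 domains reached chr6:30738000 in both control libraries. EZH2 domains covered the window in all 4 libraries at 3 of the 10, Grb10, Igf2r and Dlk1, against 10.4% of promoters.

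At Grb10 the peak was wide and lay on the same stretch in every library. It spanned 20.7 kb and 28.2 kb in control and 28.1 kb and 26.2 kb in ex14D, for example chr11:12017789-12045973 in control replicate 2. This covers the start of the gene (chr11:11930499-12037428, reverse strand) and the second annotated TSS 9.45 kb inside it, around which the 1 kb window has 11 CpGs. The peak caller's fold enrichment was 2.94 and 3.79 in control and 6.25 and 3.75 in ex14D. On this measure Grb10 was not the highest of the set. The promoter peak of Igf2 had 8.09 and 2.94 in control and 9.31 and 15.98 in ex14D. That of Igf2r had 9.32 and 2.50 in control and 5.83 and 13.67 in ex14D. EZH2 domains lay within the Grb10 peak. They were 18 kb and 19 kb wide in control and 18 kb and 21 kb wide in ex14D, so that their width overlapped between genotypes.

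The counted neighbours of Grb10 were not at its level. Ddc, the enzyme that makes dopamine and serotonin, is the nearer of them, 32355 bp from Grb10. It had 10.1 and 19.2 CPM in control and 6.89 and 9.62 CPM in ex14D, with edgeR adjusted p = 0.665. This was below its input with CPM over gene rows, a standing that depends on the scaling. Cobl, the neighbour on the other side at 199248 bp and an actin nucleator, had 55.5 and 32.0 CPM in control and 11.03 and 12.8 CPM in ex14D.

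At Dlk1 the H3K27me3 peak over the promoter was 14.4 kb and 26.97 kb wide in control and 16.7 kb and 10.03 kb in ex14D. EZH2 domains within 20 kb of its TSS covered 13 kb and 15 kb in control and 6 kb and 5 kb in ex14D, without overlap. The Igf2 domains also covered more in control, 12 kb and 14 kb against 9 kb and 10 kb, as did those of Mest, 3 kb and 6 kb against 2 kb and 0 kb. Those of Igf2r did not separate, at 1 kb and 3 kb in each genotype. Over the whole genome the control libraries had 7322 and 7704 EZH2 domains and the ex14D libraries 5067 and 4122, and the part of this in the widths was not tested.

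Igf2 lay under peaks of 13.2 kb to 20.6 kb that covered all 4 of its annotated starts in every library, the CpG-poor first start included. Igf2r had a narrow peak of 3.08 kb to 4.02 kb at its own promoter. Another, at chr17:12741309-12743954 in control replicate 1, lay over the start of Airn, the antisense noncoding RNA whose transcription silences Igf2r on the paternal copy. This peak was present in all 4 H3K27me3 libraries, at 2.25 kb to 4.01 kb, with an EZH2 domain of 2 kb to 3 kb in all 4 EZH2 libraries. At Slc38a4 a single peak was called, 1.28 kb wide and in control replicate 2, outside the promoter window.

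**Figure D3:**
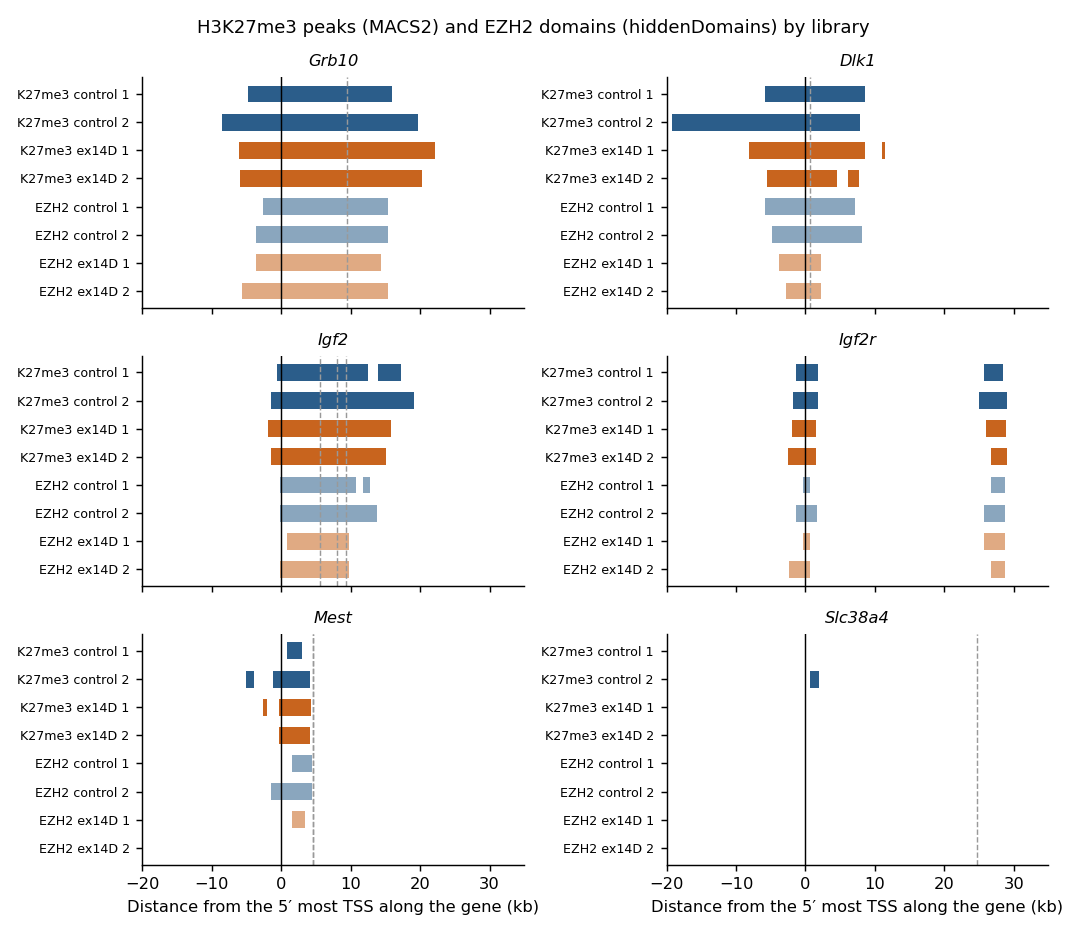
H3K27me3 peaks (dark bars) and EZH2 domains (pale bars) of each library around 6 imprinted genes, as distance in kb from the 5′ most TSS along the direction of transcription. Blue is control, orange ex14D, the solid line the 5′ most TSS and dashed lines other annotated starts. The Grb10 bars cover both starts in all 8 libraries, the EZH2 bars of Dlk1 are shorter in ex14D, and the second group of Igf2r bars is at the start of Airn.

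EZH2 reads were counted per gene, and the counts followed gene length (Spearman rho 0.876 over 13886 genes in control replicate 1, against 0.163 for H3K27me3), so they cover the gene body and not the promoter alone. The 5 genes Grb10, Plagl1, Dlk1, Meg3 and Slc38a4 are listed at 0 in all 4 EZH2 libraries. They lie in runs of 345 to 1132 neighbouring genes listed at 0, part of 10575 such genes in all, and Grb10 and Dlk1 nonetheless have EZH2 domains in all 4 libraries. These zeros were therefore not read as absence of EZH2.

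The other 5 genes had EZH2 counts. Igf2 had 1460 and 1851 reads in control and 1075 and 1032 in ex14D, or 6.56 and 6.27 CPM per kb of gene in control and 4.91 and 3.91 in ex14D. Mest had 318 and 448 reads in control and 260 and 305 in ex14D, or 1.53 and 1.63 CPM per kb against 1.28 and 1.24. In both genes the ex14D libraries were below the control libraries. Igf2r (0.686, 0.725, 0.735 and 0.761 CPM per kb), Peg3 (0.833, 0.922, 0.848 and 1.02) and H19 (0.827, 0.997, 1.01 and 1.19, the 2 control libraries first in each) stood near each other. Airn spans the promoter of Igf2r, Airn and other transcripts overlap the gene, and reads on overlapping genes were counted for neither.

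**Figure D4:**
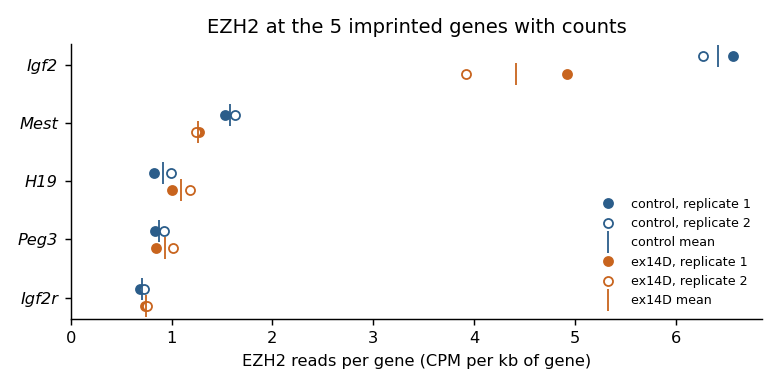
EZH2 reads over the 5 imprinted genes with counts, as CPM per kb of gene on a linear axis from 0. Filled and open circles are replicates 1 and 2, vertical bars the mean of 2 libraries, blue control and orange ex14D. Igf2 lies highest, at 6.56 and 6.27 in control against 4.91 and 3.91 in ex14D, whereas Peg3, H19 and Igf2r lie between 0.686 and 1.19.

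In the EZH2 fit over 13401 genes, 7.93% were past the threshold, 7.88% lower in ex14D and 0.0522% higher. Igf2 was lower, with a log2 fold change of -0.58 ± 0.10 (SE), and so was Mest, at -0.38 ± 0.08. Igf2r at 0.04 ± 0.06, Peg3 at 0.05 ± 0.10 and H19 at 0.22 ± 0.22 were not past the threshold. Igf2r is 87.3 kb long with a domain of 1 kb to 3 kb at its promoter, so its counts cannot show whether EZH2 changed there. Peg3 and H19 had no EZH2 domain within 20 kb of the TSS in any library. Thus Igf2 and Mest had a smaller share of EZH2 reads over the gene and a larger share of H3K27me3 reads in the promoter window in ex14D. In the 6 alternative settings that kept every library, Igf2 was past the threshold in 5 for H3K27me3 and 6 for EZH2. Mest was past it in 1 for H3K27me3 and 4 for EZH2. Without control replicate 1 or without control replicate 2, no gene in the EZH2 table was past the threshold, with 1372 and 1300 genes lower and 186 and 198 higher at an unadjusted p under 0.05 (edgeR). Igf2 then stood at -0.55 and -0.61 and Mest at -0.41 and -0.33.

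The wider family of imprinted genes was taken from a list of 66, of which 64 were in the tables, and some of these are imprinted in particular tissues only. In H3K27me3, 45 were tested by edgeR, and 8 rose and 1 fell in ex14D, 20.0% against 9.07% of all promoters, with a median log2 fold change of 0.25 against -0.03. With library size alone 4 rose and 4 fell, while over all promoters 398 were higher and 2130 lower, against 867 and 483 with TMM. The difference in share from all promoters thus depended on the scaling. The list was chosen with earlier results of these data known. Rises and falls here and below are in the share of reads, so they do not show a gain or loss of the mark or of EZH2. Genes were named from the largest changes. Kcnk9, a potassium channel, rose from 653 and 545 CPM in control to 1315 and 1804 CPM in ex14D (log2 fold change 1.83 ± 0.22, SE, adjusted p = 2.46e-06). Rasgrf1, an exchange factor for RAS, rose from 490 and 356 to 804 and 861 CPM (1.43 ± 0.21, adjusted p = 3.04e-05). Both kept an adjusted p of at most 0.0482 in all 10 alternative settings.

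Smaller rises were measured at Peg12 (1.04 ± 0.21, adjusted p = 0.00122), at Ascl2, a trophoblast transcription factor (0.98 ± 0.20, adjusted p = 0.00121), and at Sfmbt2, a polycomb protein whose imprinting relies on H3K27me3 (0.97 ± 0.20, adjusted p = 0.00196, edgeR). Without control replicate 2 these were at adjusted p of 0.104, 0.0733 and 0.0844, and without ex14D replicate 2 at 0.156, 0.0547 and 0.155. Over the 10 alternatives their adjusted p reached 0.156, 0.0733 and 0.155. Cobl fell by 1.38 on the log2 scale (SE 0.38, adjusted p = 0.0186, edgeR), from a control level close to input with CPM over gene rows. With all counted reads as library size, control Cobl was above input, with 33 and 30 reads of 10525739 and 15683174 against 17 of 21566935. Its adjusted p was 0.115 without control replicate 1, 0.0576 without control replicate 2, 0.209 without ex14D replicate 1 and 0.0954 without ex14D replicate 2, and no imprinted gene of this list was lower in those fits, with 1 to 4 lower at an unadjusted p under 0.05.

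**Figure D5:**
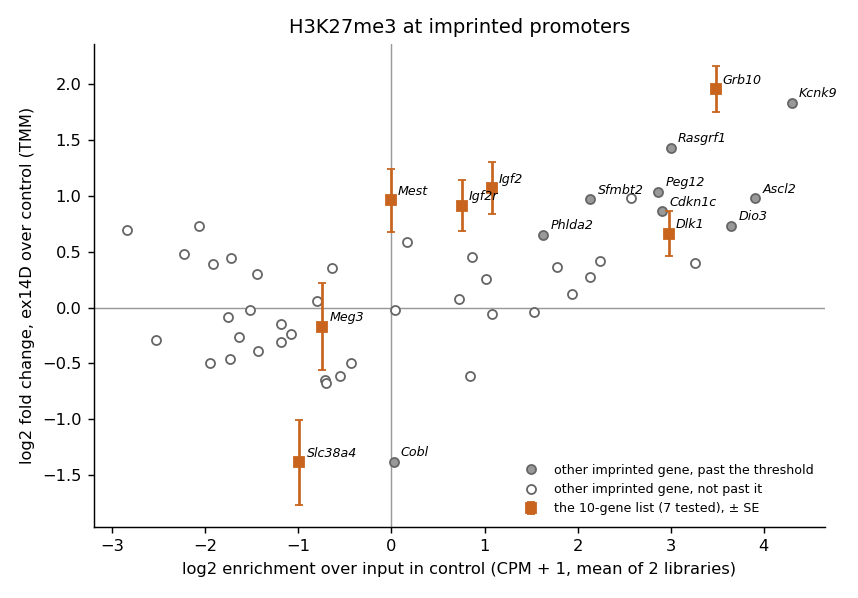
log2 fold change of H3K27me3 in ex14D over control (vertical, edgeR with TMM) against the log2 enrichment over input in control (horizontal, CPM + 1, mean of 2 libraries). Squares with SE bars are 7 genes of the 10-gene set, grey circles other imprinted genes past the adjusted p threshold and open circles those not past it. Grb10 at 3.48 and 1.95 lies near Kcnk9 at 4.30 and 1.83, and Slc38a4 and Cobl lie lowest.

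In EZH2, 44 genes of the wider list were tested, and 9 fell and 0 rose, 20.5% against 7.93% of all genes, with a median log2 fold change of -0.03 against 0.02. At an unadjusted p under 0.05 edgeR had 1 higher, and DESeq2 also called 0 higher. Klf14, a transcription factor in the Mest cluster, fell from 18.7 and 19.4 CPM per kb of gene in control to 10.2 and 5.64 in ex14D (log2 fold change -1.33 ± 0.21, SE, adjusted p = 0.0107). Cdkn1c, a cell cycle inhibitor, fell from 40.7 and 41.2 to 24.8 and 16.4 CPM per kb (-1.04 ± 0.16, adjusted p = 0.0100), and Ascl2 from 22.2 and 24.0 to 13.8 and 10.3 (-0.997 ± 0.126, adjusted p = 0.00554). Wt1 (-0.95 ± 0.15, adjusted p = 0.0106), Magel2 (-0.82 ± 0.17, adjusted p = 0.0262) and Gnas (-0.74 ± 0.13, adjusted p = 0.0142) fell as well. The genes of the list that fell in EZH2 over the gene and rose in H3K27me3 at the promoter were Ascl2, Cdkn1c, Sfmbt2 and Rasgrf1, of which Cdkn1c in H3K27me3 and Sfmbt2 and Rasgrf1 in EZH2 were named after their values were seen. How many of all genes showed both changes was not counted. Of the 7 ChIP-PCR genes, 5 were higher in H3K27me3. In EZH2, 6 of them were tested and 3 were lower, with a median log2 fold change of -0.34. Both changes were thus not shown to be particular to imprinted genes. Cdkn1c rose in H3K27me3 by 0.86 ± 0.20 (adjusted p = 0.00446, up to 0.122 in the alternatives, edgeR). In EZH2, Sfmbt2 was at -0.33 ± 0.04 (adjusted p = 0.00592, up to 0.185) and Rasgrf1 at -0.23 ± 0.04 (adjusted p = 0.0149, up to 0.564). Without control replicate 1 or 2 none of Klf14, Cdkn1c, Ascl2, Wt1, Magel2 and Gnas was past the EZH2 threshold, with adjusted p of 0.167 to 0.309 and log2 fold changes of -1.35 to -0.73.

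Among all promoters, those most like Grb10 over the 4 H3K27me3 and 2 input libraries, by Euclidean distance in log2(CPM + 1), were Hoxa7 (distance 0.49), Foxa2 (0.57) and Foxc1 (0.60). Hoxa7, a homeobox gene, had 552 and 480 CPM in control and 1259 and 1509 CPM in ex14D, close to the 443, 452, 1125 and 1415 CPM of Grb10. The forkhead genes Foxa2 and Foxc1 had 434 and 402 CPM and 481 and 459 CPM in control, and 865 and 1155 CPM and 989 and 1033 CPM in ex14D.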

How the data were processed

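The members of the set, the wider gene list and the tests were chosen with earlier results of these data known. Per the methods, Bowtie was used for alignment and htseq-count for reads in promoter windows of 1 kb around the 5′ most TSS. The submitters' processing notes name Trimmomatic, Bowtie2, MACS2, ChIPseeker, HTSeq and mm10. The deposited tables hold raw counts, which the authors did not normalize. Reads on no gene (92.0% to 98.0% of reads in inputs and H3K27me3, 33.8% to 34.9% in EZH2) and on several genes stayed out of library sizes. The MACS2 broad peaks deposited by the authors carry a fold enrichment, a −log10 p and a −log10 q from MACS2, whose control is not given in the sources used here, and a deposited score, not used. EZH2 hiddenDomains domains, deposited without a posterior probability, come in steps of 1 kb. H3K27me3 domains did not match mm10 coordinates and were not used.

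Counts were compared per antibody with edgeR 4.0.16 in R 4.3.3 (TMM, filterByExpr, quasi-likelihood test, two-sided, Benjamini-Hochberg over all rows tested, threshold 0.05). Standard errors are approximate. DESeq2 1.42.0, other library sizes, no filter, a replicate block and each library left out in turn were alternatives. Enrichment over input is log2 of CPM + 1 over input CPM + 1. Permutation of 2 against 2 libraries cannot go below p = 0.333. Named genes were all 10 members, up to 6 genes of the wider list per antibody past the threshold with the largest change, the nearest counted genes beside Grb10 and the 3 promoters nearest to it in level. Windows, positions and CpGs are from GRCm38.p6 with RefSeq annotation, on which 24368 of 24500 genes were placed. Between libraries of the same genotype counts differed by more than sampling noise (chi-square per degree of freedom 1.49 to 4.00). Other steps ran in Python 3.11.15 with pandas 2.3.3, pysam 0.24.0 and scipy 1.17.1.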

Additional observations from a re-analysis of the deposited data

How the results depend on the processing

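Library size in place of TMM gave 2130 promoters lower and 398 higher in H3K27me3, against 483 and 867, with 4 lower and 4 higher in the wider imprinted list and 1 of the 10 genes higher. In EZH2 it gave 47 genes higher, against 7, and all counted reads as library size gave 33, with 2 of the 10 genes higher in H3K27me3. DESeq2 size factors gave 2 higher in EZH2. DESeq2 gave 266 promoters lower, 3 of the 10 genes higher, 0 of them and 0 of the wider list lower (1 each at an unadjusted p under 0.05), and in EZH2 0 genes higher (7 at an unadjusted p under 0.05) and 1 of the 10 genes lower, Igf2. DESeq2 gave no adjusted p to Slc38a4. With replicate number as a block, 3 of the 10 genes were higher in H3K27me3, Grb10, Igf2 and Igf2r, and in EZH2 3 genes were higher and 1 of the 10 was lower. Same-numbered libraries did not deviate together (correlations of -0.10 and -0.02), so the numbers were not taken to pair them. Leaving out 1 library in turn gave 55 to 610 promoters lower and 183 to 797 higher, 0 of the wider list lower in each (1 to 4 at an unadjusted p under 0.05) and 2 to 9 higher, and 0 to 1 of the 10 genes lower and 1 to 3 higher. For EZH2 it gave 0 to 1561 genes lower and 0 to 81 higher, 0 to 14 of the wider list lower and 0 to 2 of the 10 genes lower. The 0 counts came without control replicate 1 and without control replicate 2, each of which leaves 1 control library, assumed to vary like the ex14D libraries. The causes of these shifts were not tested. With the pseudocount at 0.05 CPM and all counted reads as library size, chosen after seeing the data, Grb10 was enriched by 5.04 on the log2 scale in control and by 6.24 in ex14D. In control and ex14D, Meg3 was then at 0.82 and 1.40, H19 at -0.05 and 1.13 and Slc38a4 at 0.58 and -0.85. Peaks within 5 kb of the TSS in place of the window gave 5 of the 10 genes for H3K27me3 and 4 for EZH2. Low read numbers limit Meg3, H19, Plagl1 and Peg3.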
